A study of Arabidopsis thaliana with 74 samples.

Results

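The set described here holds 10 genes of methionine-derived (aliphatic) glucosinolate biosynthesis, chosen by locus: MAM1 (AT5G23010) and IMS2 (AT5G23020, also called MAM3), which together form the MAM locus, BCAT4 (AT3G19710), CYP79F1 (AT1G16410), CYP79F2 (AT1G16400), CYP83A1 (AT4G13770), MYB28 (AT5G61420), MYB29 (AT5G07690), AOP2 (AT4G03060) and FMO GS-OX1 (AT1G65860). Of the 32833 genes in the count table, 9 were genes of this set, and all 9 passed the filter on low counts. AOP2, annotated as a transcribed pseudogene in the Columbia reference, had no expression level analysed here. The genes drew attention through their difference between the parents, so for these genes every value that sets msCol against another group is a description and carries no p.

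RNA came from whole Arabidopsis thaliana rosettes cut at day 27 after sowing, and each line gave 1 library. The 36 epiRIL libraries came from paternal lines in a Columbia background whose genomes carry DNA methylation losses derived from a ddm1-2 founder. The 36 epiHybrid libraries came from the F1 families made by crossing a male-sterile msCol mother to those 36 epiRILs, and each epiHybrid shares its family number with its father. The 2 msCol libraries, lines 12 and 16 (names unrelated to the family numbers), came from the maternal stock: Columbia carrying the ms1 allele inside an introgressed Landsberg erecta (Ler) segment around MS1 on chromosome 5. The msCol plants were grown from crosses of ms1 homozygotes with heterozygous siblings, so that the segment may have been heterozygous in some of the pooled plants. Which of the msCol lines served as mother of a given epiHybrid is not stated in the labels. Plants from 3 cultivation experiments were pooled per line, so the spread between libraries is a spread between lines or families, and the 36 families had been picked by how far their leaf area departed from the parents, some for high or low departure and some for none.

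Glucosinolates are sulphur-rich defence compounds of the Brassicales, which myrosinases break down into toxic products when a leaf is damaged. In the methionine branch, BCAT4 removes the amino group of methionine, MAM synthases lengthen the resulting oxo acid, CYP79F and CYP83A1 enzymes build the core, and FMO GS-OX and AOP enzymes modify the side chain. MYB28 and MYB29 are transcription factors that activate these genes together. Accessions are known to differ at the MAM and AOP loci, and the Ler haplotype carries MAM copies other than those of Columbia, to whose reference genome the reads were aligned.

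Library totals ranged from 38.13 M to 42.21 M counts (median 40.8 M, M standing for mega), at which 1 count was worth 0.0245 CPM (counts per M library counts). Levels below are CPM after TMM scaling, a correction for differences in composition between libraries. Of 3 leaf markers, 3 were abundant in every group, with summed levels of 11811 to 78445 CPM. Summed levels of 5 root markers were 6.29 to 33.4 CPM, with 3 of the 5 (COBL9, EXPA7 and EXPA18) never reaching 1 CPM, and of 4 floral markers 5.95 to 24.8 CPM. The annotated exons of the root markers PYK10, EXPA7 and EXPA18 overlap those of another gene, and the part of this in their levels was not tested. In such bulk tissue, fewer cells of a type and less RNA per cell cannot be told apart.

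Several libraries went against their labels at the maternal segment. At 17 genes within 1.35 Mb of MS1 (MAM1 and IMS2 left out) that differed at least 2-fold between msCol and the epiRIL median and were alike in both msCol libraries, a position of 0 was set at the epiRIL median and 1 at the msCol mean. In the other 34 families the epiHybrids had positions of 0.0932 to 0.645 (median 0.414) and the epiRILs of -0.199 to 0.125. The library labelled epiHybrid 12 had -0.0188 and the library labelled epiRIL 12 had 0.345. In family 568 the library labelled epiHybrid had -0.0946 and the library labelled epiRIL 0.162. At AT1G50290 on chromosome 1, picked after its values were seen, the 34 other epiHybrids had 27.6 to 117 CPM and the 34 other epiRILs 5.50 to 24.9 CPM, whereas the labelled epiHybrids of families 12 and 568 had 10.3 and 11 CPM and the labelled epiRILs 51.3 and 67.5 CPM. In both families the hybrid label thus stood on the library with paternal-like levels. AT1G50290 had the highest Pearson's r with IMS2 over the epiRILs, families 12 and 568 among them, so its values are no independent check of the labels. In the epiRILs of families 219, 266, 275, 330, 334 and 503, AT1G50290 had 16.2 to 24.9 CPM (median of the 34, 7.76). Their positions were 0.0208 to 0.125, and their IMS2 levels 38.8 to 59.0 CPM (epiRIL median 26.4). EpiRIL 393 had 39.9 CPM of IMS2 but 7.06 CPM of AT1G50290. These families were kept throughout, and their part in the IMS2 values was not tested. A further library, epiHybrid 79, held 187 CPM of AOP3, a side-chain enzyme listed at no more than 0.147 CPM in any epiRIL and 0.0513 CPM in either msCol library. Whether material was exchanged or mixed was not tested. Labels were kept, and results were computed with and without families 12, 79 and 568, a set chosen after the data were seen.

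MAM1 and IMS2 lie on chromosome 5 (TAIR10.1, 7703041-7706973 and 7718118-7721866, plus strand), 11.1 kb apart with 0 annotated genes between them and 333 kb beyond MS1. Both are protein-coding and are counted over their exons. The 250 bases before the annotated start of MAM1, whose level was higher in the epiRILs than in msCol, are shown beside those of CYP83A1, the promoter of the set that held both motifs searched, from the RefSeq copy of TAIR10.1.
MAM1, chr5:7702791-7703040, plus strand: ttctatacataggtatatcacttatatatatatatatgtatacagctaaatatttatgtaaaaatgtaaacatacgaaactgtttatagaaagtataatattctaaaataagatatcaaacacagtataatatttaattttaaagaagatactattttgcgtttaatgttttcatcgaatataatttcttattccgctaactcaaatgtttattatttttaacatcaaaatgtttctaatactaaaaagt
CYP83A1, chr4:7992430-7992679, minus strand: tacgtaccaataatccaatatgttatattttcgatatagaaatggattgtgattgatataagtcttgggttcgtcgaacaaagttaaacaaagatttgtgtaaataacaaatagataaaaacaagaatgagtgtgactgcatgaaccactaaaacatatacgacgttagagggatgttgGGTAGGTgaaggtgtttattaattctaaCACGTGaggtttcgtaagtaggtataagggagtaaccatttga
The capitals mark a G-box (CACGTG, the letters bound by MYC factors) and an AC element (ACCTACC, and as further forms ACCAACC as well as ACCTAAC, letters of the kind MYB factors bind), both searched on either strand. The matches do not overlap, and the AC element of CYP83A1 stands on the other strand and reads GGTAGGT. The G-box was found in 1 of the 9 promoters searched (those of the set without IMS2, AOP2 included), against 6.5% of 27443 promoters of this length. An AC element was found in 3 of the 9 (CYP79F2, CYP83A1 and FMO GS-OX1), against 6.1%. CYP83A1 held its G-box 43 bases and its AC element 71 bases before the start. The sequences are those of the Columbia reference, and the Ler sequence at the MAM locus was not analysed here.

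MAM1, which makes the shorter elongated chains, was highest in the epiRILs and lowest in msCol. The 36 epiRILs had 254 to 794 CPM of MAM1 (median 552), the 36 epiHybrids 192 to 504 CPM (median 370) and the msCol libraries 176 and 183 CPM. Every epiRIL and every epiHybrid lay above both msCol libraries, and 33 of 36 epiHybrids lay below their father. The fitted log2 fold change of MAM1 was 1.58 ± 0.26 (SE) for epiRIL against msCol, 1.02 ± 0.25 for epiHybrid against msCol and -0.58 ± 0.07 for epiHybrid against epiRIL. Over all 19383 genes tested, 2.75% were called for epiRIL against msCol at an adjusted p under 0.05 (edgeR quasi-likelihood, Benjamini-Hochberg), 1.19% higher and 1.56% lower. For epiHybrid against msCol 1.83% were called, 0.795% higher and 1.04% lower, and for epiHybrid against epiRIL 1.31%, 0.371% higher and 0.939% lower. Nothing is read from these shares about MAM1 or IMS2.

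IMS2, a MAM synthase known for longer chains, had the opposite order. The epiRILs had 10.5 to 97.0 CPM of IMS2 (median 26.4), the epiHybrids 20.7 to 371 CPM (median 90.5) and the msCol libraries 237 and 295 CPM. The msCol mean was 10.1 times the epiRIL median, the widest gap between the parents among the 9 measured genes. All 36 epiRILs and 35 of 36 epiHybrids lay below both msCol libraries. The log2 fold change of IMS2 was -3.10 ± 0.35 for epiRIL against msCol, -1.44 ± 0.42 for epiHybrid against msCol and 1.71 ± 0.18 for epiHybrid against epiRIL. Without families 12, 79 and 568 these values became -3.23 ± 0.25, -1.50 ± 0.29 and 1.80 ± 0.11, and those of MAM1 1.61 ± 0.23, 1.01 ± 0.21 and -0.61 ± 0.06.

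Of the extremes of IMS2 in the line groups, 3 sat in the libraries named above, and the lowest epiRIL (10.5 CPM) was that of family 54. The highest epiRIL (97.0 CPM) was the library labelled epiRIL 12, the lowest epiHybrid (20.7 CPM) was the library labelled epiHybrid 12, and the highest epiHybrid (371 CPM) was epiHybrid 79. Family 568 had 65.9 CPM in the library labelled epiRIL and 26.5 CPM in the library labelled epiHybrid. In MAM1 the library labelled epiRIL 568 was the lowest epiRIL (254 CPM), and epiHybrid 79 was the lowest epiHybrid (192 CPM). IMS2 lay above the father in 34 of 36 epiHybrids, and in 33 of 33 without families 12, 79 and 568. In those 33 families, 31 epiHybrids had more IMS2 than any epiRIL and 13 had less MAM1 than any epiRIL.

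Per kilobase of exon, IMS2 made up 2.96 to 22.5% of the summed MAM1 and IMS2 level in the epiRILs (median 4.73%), 4.78 to 68.4% in the epiHybrids (median 23.5%), and 60.2% and 64.4% in msCol. Without families 12, 79 and 568 the ranges were 2.96 to 11.2% and 13.9 to 27.6%, which do not overlap. The summed level differed less than the share did. Its median was 282 CPM per kb in the epiRILs and 229 in the epiHybrids, and the msCol libraries had 216 and 250 CPM per kb. Reads of a Ler copy can align to either gene or to neither, and the part of alignment in these values was not tested.

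Against the mean of the father and the msCol mean (the mid-parent value), the paralogs differed. MAM1 in the epiHybrids had a median divergence of 1.53% from the mid-parent, with 19 epiHybrids above and 17 below it. IMS2 had a median of -37.7%, with 35 of 36 epiHybrids below mid-parent, and without families 12, 79 and 568 all 33 lay below, with values from -62.1% to -8.49%. Both genes lay between the parental levels in 33 of 36 families. The mid-parent rests on 2 maternal libraries, and no test was run on it.

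The change of level did not run on evenly to the tested genes next to the MAM locus, all of which lie on the IMS2 side. Of the 5 annotated genes on either side, 7 did not pass the filter, with MYB37 the highest at no more than 0.893 CPM in an epiRIL. They include all 5 on the MAM1 side, so that side was not tested. CDF1 had medians of 144 CPM in epiRILs and 151 CPM in epiHybrids, and 135 and 131 CPM in msCol (log2 fold change of epiRIL against msCol 0.16). AAE17 had 15.9 CPM in epiRILs and 20.7 and 27.7 CPM in msCol (-0.59). CaS had 403 CPM in epiRILs, 308 CPM in epiHybrids and 208 and 181 CPM in msCol (1.08), the same order as MAM1.

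The other 7 measured genes were all higher in msCol than in the epiRILs, and their epiHybrid levels lay near those of the fathers. BCAT4, which opens the chain elongation, had 266 to 597 CPM in epiRILs (median 484), 254 to 765 CPM in epiHybrids (median 518) and 732 and 773 CPM in msCol. Its log2 fold change for epiRIL against msCol was -0.68 ± 0.20. The 2 msCol libraries stood above every epiRIL, and 34 of 36 epiHybrids lay below both. The annotated exons of BCAT4 overlap those of AT3G19700, and without a stated strand setting the reads of the pair cannot be told apart.

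The core enzymes followed the same order. CYP79F1, which turns elongated methionines into aldoximes, had 227 to 808 CPM in epiRILs (median 520), 250 to 816 CPM in epiHybrids (median 562) and 891 and 794 CPM in msCol. Its neighbour on chromosome 1, CYP79F2, was the lowest gene of the set, with 8.00 to 23.7 CPM in epiRILs (median 14.7), 7.40 to 26.1 CPM in epiHybrids (median 16.7) and 29.5 and 28.6 CPM in msCol. CYP83A1, which oxidises the aldoximes, had 416 to 738 CPM in epiRILs (median 612), 416 to 790 CPM in epiHybrids (median 624) and 813 and 816 CPM in msCol. The log2 fold changes for epiRIL against msCol were -0.72 ± 0.25 for CYP79F1, -0.96 ± 0.24 for CYP79F2 and -0.45 ± 0.14 for CYP83A1. CYP79F2 and CYP83A1 did not overlap between either line group and msCol, and 1 epiRIL had CYP79F1 above the lower msCol library. How often genes outside the set separate from msCol in this way was not counted. Such separations, here and for the other genes of the set, are therefore a description only. CYP79F1 and CYP79F2 are close copies that can share reads, so the split between them is uncertain, and the same holds for MAM1 and IMS2.

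In the side chain, FMO GS-OX1, which oxidises the methylthio group, had 42.9 to 93.9 CPM in epiRILs (median 72.7), 43.2 to 97.1 CPM in epiHybrids (median 76.3) and 115 and 106 CPM in msCol, with a log2 fold change of -0.61 ± 0.18 for epiRIL against msCol. Neither line group reached the msCol level. The regulators differed from each other. MYB29 had 48.2 to 90.0 CPM in epiRILs (median 66.3), 48.6 to 105 CPM in epiHybrids (median 68.4) and 114 and 112 CPM in msCol (-0.75 ± 0.17 for epiRIL against msCol). MYB28 had 117 to 196 CPM in epiRILs (median 163), 124 to 317 CPM in epiHybrids (median 170) and 202 and 197 CPM in msCol (-0.31 ± 0.16), the smallest gap between the parents in the set, and 6 epiHybrids lay above both msCol libraries. The highest MYB28 level, 317 CPM, was in epiHybrid 368, followed by epiHybrid 340 (228 CPM). EpiHybrid 340 also had the lowest TMM factor (0.756) and the highest level of the leaf marker RBCS1A (68988 CPM, epiHybrid median 15167). EpiHybrid 368 had the lowest level of the leaf marker CAB3 (1348 CPM, epiHybrid median 6393).

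**Figure D1:**
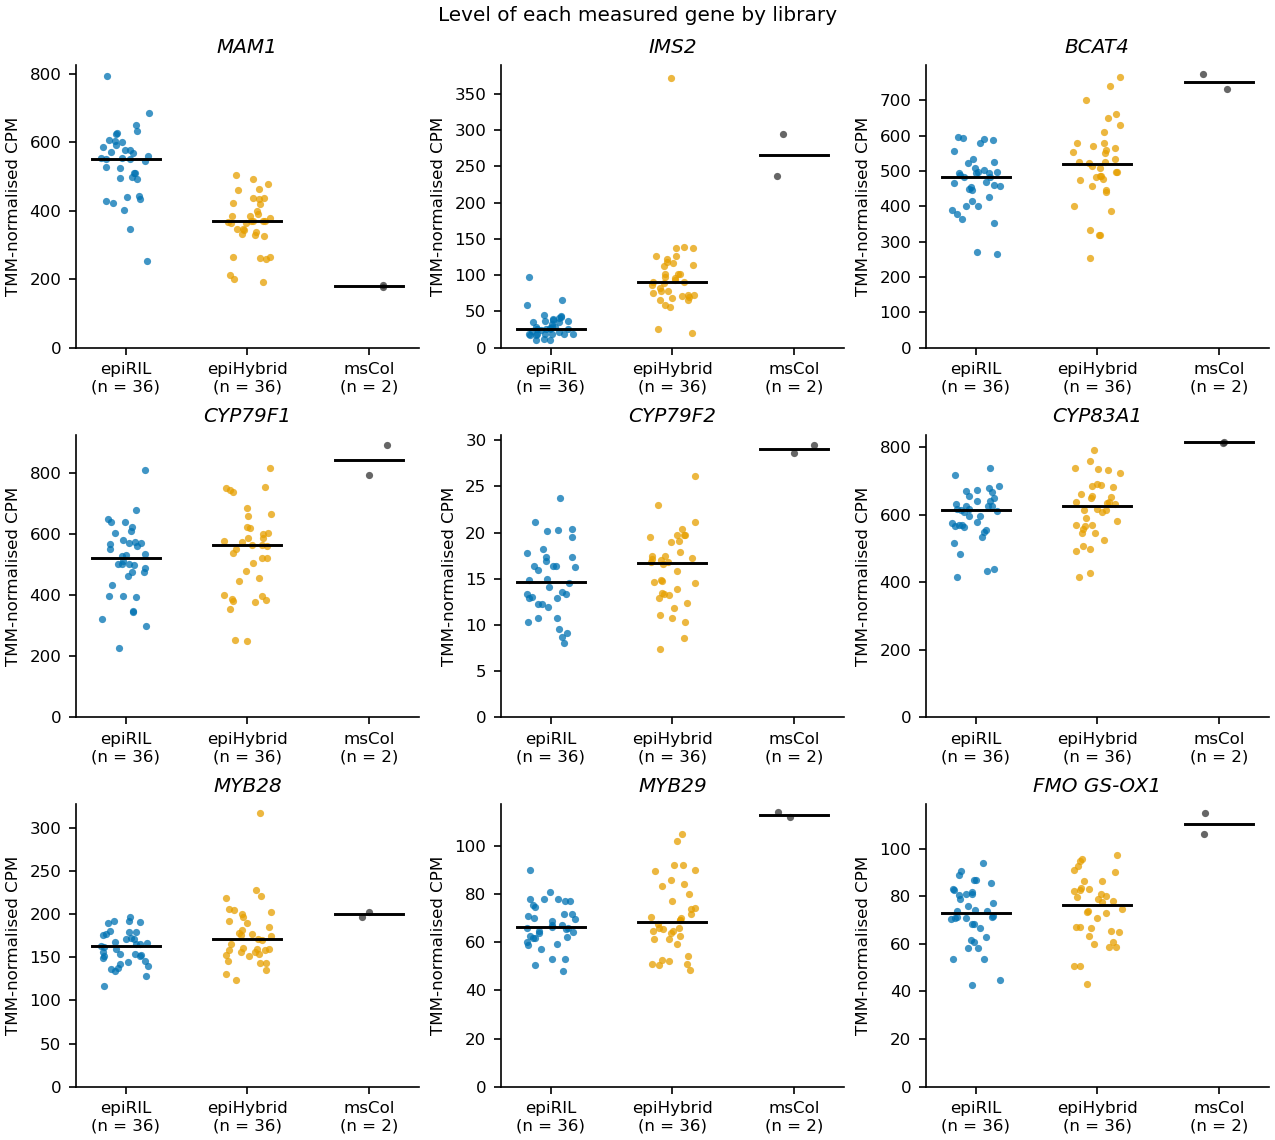
Level of the 9 measured genes in TMM-normalised CPM (y axis, from 0), 1 panel per gene, 1 point per library and a bar at the median of each group (36 epiRILs, 36 epiHybrids, 2 msCol). MAM1 falls from epiRIL to msCol (medians 552, 370 and 180 CPM), IMS2 rises (26.4, 90.5 and 266 CPM), and the other 7 genes are highest in msCol with similar medians in the line groups.

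Per kilobase of exon, the order of median levels in the epiRILs was BCAT4 (333 CPM per kb), CYP83A1 (321), MAM1 (269), CYP79F1 (159), MYB28 (82.3), FMO GS-OX1 (42.0), MYB29 (38.3), IMS2 (14.4) and CYP79F2 (7.29). The interquartile ranges of BCAT4 (291 to 354 CPM per kb) and CYP83A1 (296 to 337 CPM per kb) overlapped, as did those of FMO GS-OX1 (37.9 to 46.8) and MYB29 (35.7 to 42.0). In msCol, IMS2 had a median of 146 CPM per kb and MAM1 87.5, so that IMS2 stood above MAM1. Between epiRILs the coefficient of variation was 54.4% for IMS2, 25.8% for CYP79F2 and 23.2% for CYP79F1, and 12.2% for MYB28. The IMS2 value includes the libraries labelled epiRIL 12 and 568, which had the highest IMS2 levels among the epiRILs. Without families 12 and 568 the standard deviation of IMS2 over the epiRILs fell from 16.9 to 11.1 CPM.

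Other genes of the branch, from a list of 31 of which 28 passed the filter, had the same order between the parents for the steps that build the compounds. Against msCol, 13 of the 28 were called in the epiRILs (10 lower, 3 higher), beside 2.75% of all genes. The list was chosen with earlier results of these data known. Its genes share the pathway and the msCol libraries with the set. The count is therefore a description and no independent check of the difference seen in the set. The median log2 fold change was -0.30 over the list and 0.02 over all genes. All 6 other elongation genes and all 7 other core genes had negative values, with 4 called in each. In elongation these were BASS5 (-0.77 ± 0.17), which imports oxo acids into the plastid, IMD1 (-0.86 ± 0.16), a dehydrogenase, and the isomerase subunits IPMI1 (-0.61 ± 0.18) and IPMI2 (-0.82 ± 0.22). With no filter on low counts, IPMI1 missed the threshold. In the core they were SUR1 (-0.58 ± 0.12), the C-S lyase, GSTU20 (-0.54 ± 0.14), a glutathione transferase, and the sulfotransferases SOT17 (-0.67 ± 0.16) and SOT18 (-0.83 ± 0.15). The annotated exons of IMD1 and SOT18 overlap those of AT5G14210 and AT1G74088, so the limit stated for BCAT4 holds for them too.

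GSL-OH, a side-chain hydroxylase, had -0.88 ± 0.15 and was called, while FMO GS-OX2 to FMO GS-OX5 were not. Among regulators MYB76 (-0.84 ± 0.21) was called, whereas MYC3 and MYC4, the helix-loop-helix partners, had 0.00 ± 0.24 and -0.05 ± 0.15. The 3 genes called higher in the epiRILs act on glucosinolate breakdown. Of the 5 breakdown genes tested, TGG1 (-0.09 ± 0.19) and NSP1 (-0.21 ± 0.18) were not called and had negative values. ESM1 missed the threshold without families 12 and 568 and with no filter on low counts, but was called without families 12, 79 and 568. ESP (0.76 ± 0.15) and ESM1 (0.62 ± 0.18) steer which products form, and TGG2 (1.59 ± 0.45) is a myrosinase. The level of TGG2 was 36.2 CPM in the library of msCol 12 but 1490 CPM in that of msCol 16, and leaving out msCol 16 moved its log2 fold change to 5.99, leaving out msCol 12 to 0.62. MYC2 and GSTF11 were listed at 0 in every library and were not used, and AOP3 did not pass the filter. The annotated exons of MYC2 and GSTF11 overlap those of AT1G32630 and AT3G03200, so their zeros cannot be read as absent expression. The part of read counting in these zeros was not tested.

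None of the 5 indole-branch genes (CYP79B2, CYP79B3, CYP83B1, MYB34, MYB51) was called for epiRIL against msCol by edgeR, beside 2.75% of all genes. DESeq2 called 0 of them, and 0 had an unadjusted p under 0.05. Their log2 fold changes ranged from -0.16 to 0.36, with SE of 0.22 to 0.25. For 5 genes, 0 called is near the share over all genes, so nothing is read from this count. For epiHybrid against msCol, 7 of the 28 pathway genes were called (5 lower, 2 higher), beside 1.83% of all genes, with a median of -0.29 against 0.03 over all genes. These comparisons share the msCol libraries, and the limit stated for the epiRIL count holds for the epiHybrid count too. With a single msCol library the counts fell to 1 or 5 of 28 for epiRIL and 1 or 3 of 28 for epiHybrid, with GSL-OH the gene called without msCol 12.

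**Figure D2:**
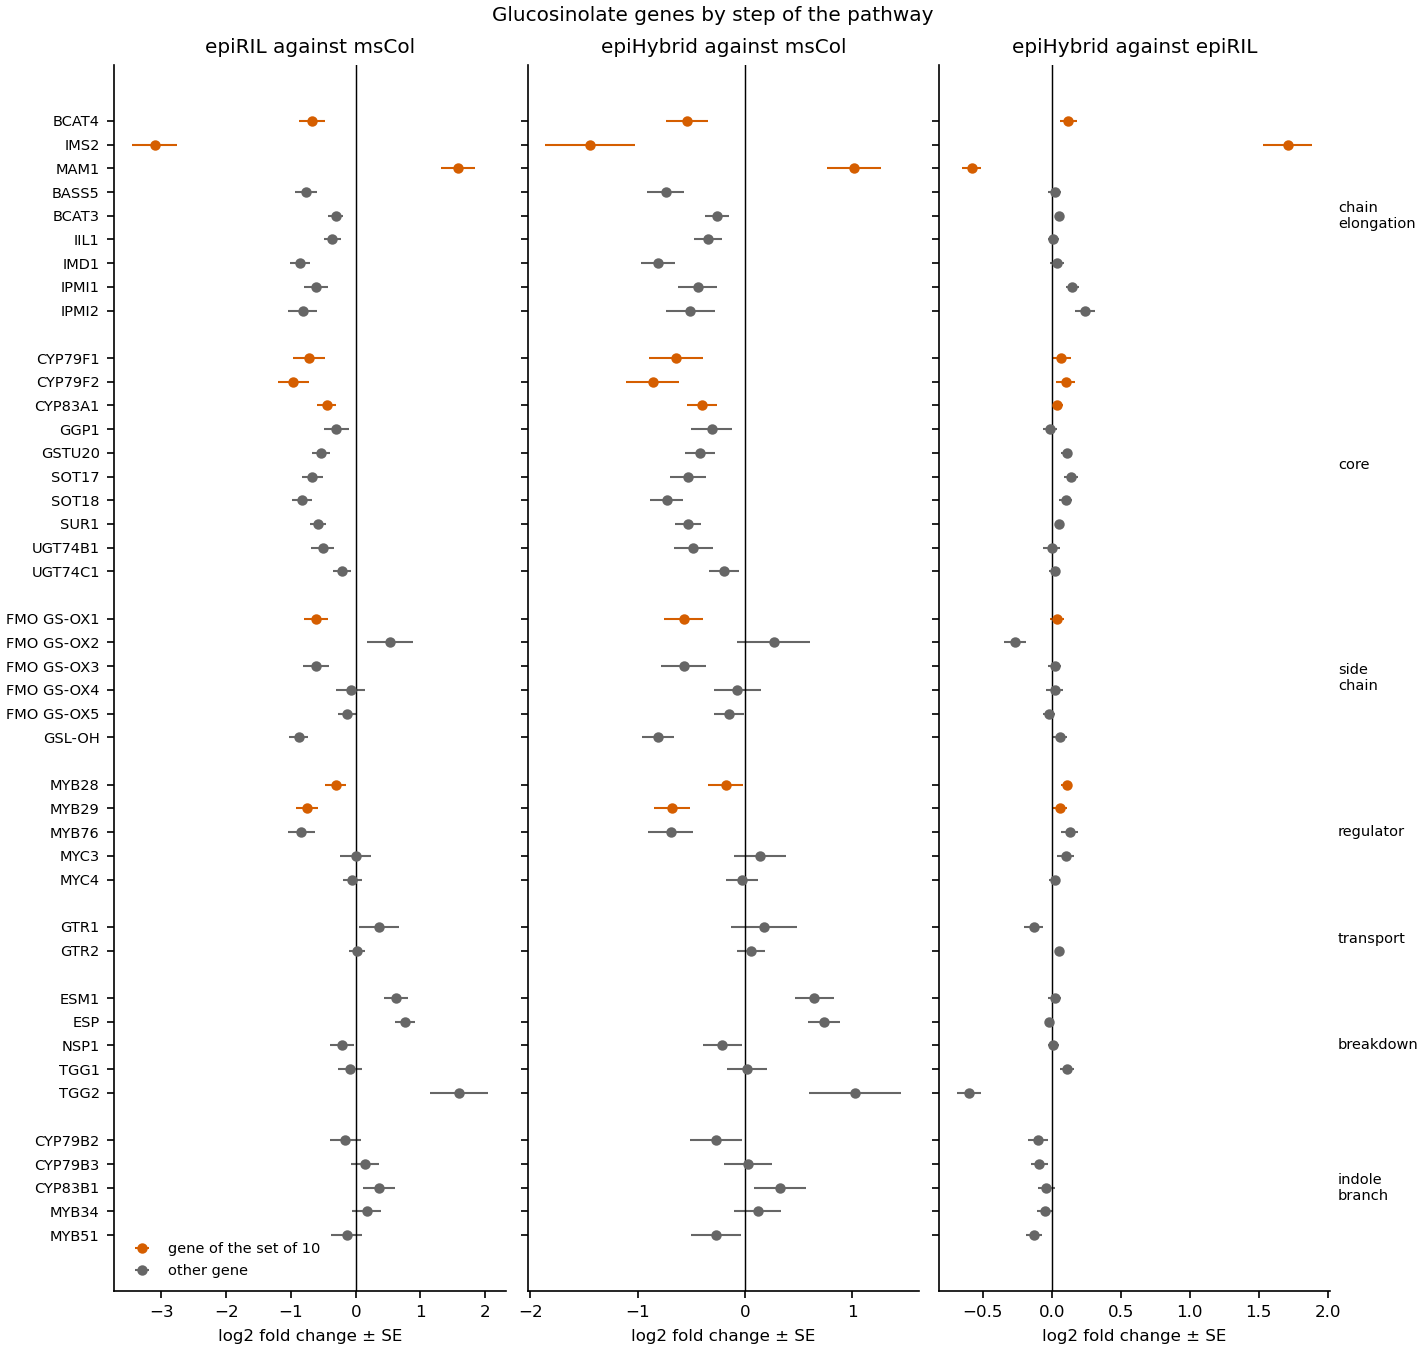
Log2 fold change ± SE (x axis) of each glucosinolate gene, grouped by step of the pathway, in the 3 comparisons (panels, with different x ranges), with the 9 measured genes of the set in orange. Against msCol the elongation and core genes other than MAM1 lie left of 0 (IMS2 at -3.10 for epiRILs), while between epiHybrid and epiRIL most genes lie within 0.3 of 0 apart from IMS2 (1.71), MAM1 (-0.58) and TGG2 (-0.60).

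The comparison of each epiHybrid with its own father asked whether the branch departed from the paternal level. None of the 7 measured genes outside the MAM locus was called by edgeR (beside 1.31% of all genes) or by DESeq2, and 1, MYB28, had an unadjusted p under 0.05. MYB28 was higher in 23 of 36 epiHybrids, with a log2 fold change of 0.11 ± 0.04 (adjusted p = 0.218, edgeR). BCAT4 had 0.12 ± 0.06 (adjusted p = 0.52), CYP79F1 0.07 ± 0.07 (0.794), CYP79F2 0.10 ± 0.07 (0.677), CYP83A1 0.04 ± 0.04 (0.797), MYB29 0.06 ± 0.05 (0.722) and FMO GS-OX1 0.04 ± 0.05 (0.829). Against the mid-parent, the median divergence of these genes in the epiHybrids ran from -6.77% for MYB28 to -27.1% for CYP79F2.

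Of the 28 other pathway genes, TGG2 alone was called between epiHybrid and father, lower by 0.60 on the log2 scale (-0.60 ± 0.09, adjusted p = 4.14e-05, edgeR). TGG2 had 437 to 2798 CPM in epiHybrids (median 1453) and 1107 to 3444 CPM in epiRILs (median 2232). It lies on chromosome 5 at 9072708-9075777, on the same chromosome as MS1 (7367635-7370295). Whether the introgressed Ler segment reaches TGG2 was not tested, so it cannot be counted as a gene away from that segment. Without families 340 and 368, IPMI2 was also called (0.16, adjusted p = 0.0357), and without families 12 and 568, FMO GS-OX2 (-0.30, adjusted p = 0.0414). The 5 indole-branch genes had -0.13 to -0.04 and 0 were called by edgeR, beside 1.31% of all genes, and 0 by DESeq2. Of the 5, 1 (MYB51) had an unadjusted p under 0.05. Nothing is read from this count.

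Whether an epiHybrid's level followed that of its own father was tested over the families by Pearson's r of log2(CPM + 1) with 100000 shuffles of the pairing (one-sided, adjusted over all genes). MYB28 followed the father with r = 0.49 (n = 36, permutation p = 0.00096, adjusted p = 0.0193, Spearman's rho = 0.43 with p = 0.0048), and r was 0.40 without the fathers of families 54 and 568, farthest from the median. Of the 9 measured genes of the set 2 were called, close to the 18.0% of all genes called with r above 0. The median r was 0.35 over the 9 genes and 0.27 over all genes. Nothing is therefore read from this count about the set. MYB29 had r = 0.40 (permutation p = 0.00863, adjusted p = 0.0491, rho = 0.29 with p = 0.043), which fell to 0.27 without families 568 and 469 and missed the threshold without families 12, 79 and 568 (r = 0.36, adjusted p = 0.0668). MYB28 remained called there (r = 0.50, adjusted p = 0.0197), as the only 1 of the 9 genes, beside 18.7% of all genes.

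The enzymes were not called: CYP79F2 had r = 0.37 (adjusted p = 0.0583), CYP79F1 0.36 (0.0647), FMO GS-OX1 0.35 (0.0695), BCAT4 0.23 (0.151) and CYP83A1 0.23 (0.152), all permutation tests over 36 families. Without the 2 fathers farthest from the median, r fell to -0.01 for FMO GS-OX1, 0.03 for BCAT4 and -0.02 for CYP83A1, and was 0.33 for CYP79F2 and 0.28 for CYP79F1. MAM1 had r = 0.04 (adjusted p = 0.448) and 0.34 in the 33 families (adjusted p = 0.0822). IMS2 had r = -0.39 (adjusted p = 0.991) and 0.12 in the 33 families (adjusted p = 0.323), so the negative value rested on families 12, 79 and 568. Of the 28 other pathway genes 9 were called, beside 18.0% of all genes, with a median r of 0.34 against 0.27 over all genes.

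**Figure D3:**
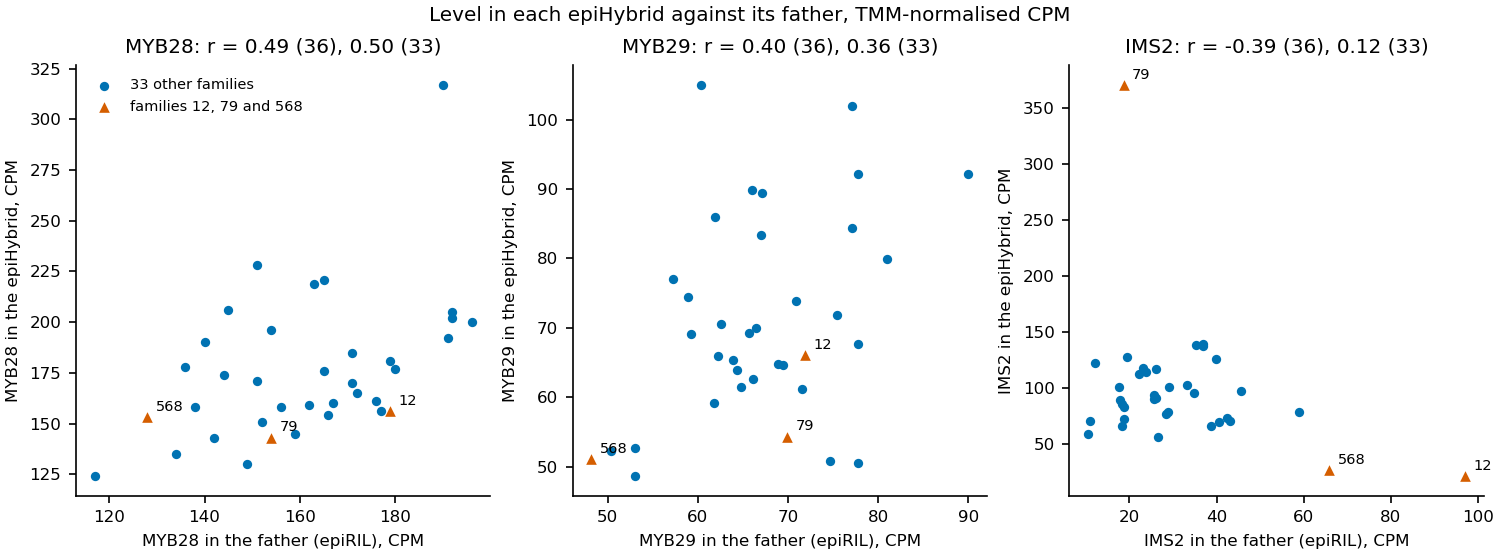
Level in each epiHybrid (y axis) against its father (x axis), TMM-normalised CPM, for MYB28, MYB29 and IMS2, 1 point per family, with families 12, 79 and 568 as labelled triangles. MYB28 rises with the father (r = 0.49 over 36 families), and the negative slope of IMS2 (r = -0.39) comes with the 3 labelled families, without which r is 0.12.

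Between lines of one kind, the genes of the set varied together. Over the 36 epiRILs all 8 other measured genes correlated with MYB28 at an adjusted p under 0.05, beside 19.3% of all genes called with r above 0 and 16.8% below. CYP79F1 had r = 0.77, FMO GS-OX1 0.77, CYP83A1 0.74, CYP79F2 0.74 and MAM1 0.73, each with a permutation p of 1e-05, the smallest that 100000 shuffles can give, and an adjusted p of 0.000446. Their Spearman's rho was 0.70 to 0.74 with the same p, and r without families 54 and 568 was 0.65 to 0.71. MYB29 had r = 0.61 (adjusted p = 0.00157, rho = 0.54 with p = 0.00098, 0.49 without the 2 farthest), BCAT4 0.60 (adjusted p = 0.00164, rho = 0.55 with p = 0.00062, 0.55) and IMS2 0.43 (adjusted p = 0.0294, rho = 0.46 with p = 0.00534, 0.50). In the 33 families without 12, 79 and 568 all 8 were again called, beside 14.7% of all genes with r above 0 and 14.3% below. The median r over 36 epiRILs was 0.74 over the 8 genes, 0.49 over the 28 other pathway genes (17 called), 0.34 over the 5 indole-branch genes (2 called) and 0.04 over all genes.

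Over the 36 epiHybrids the pattern split. MYB29 (r = 0.82), CYP79F2 (0.68), CYP79F1 (0.67), MAM1 (0.66) and FMO GS-OX1 (0.59) were called with MYB28, with adjusted p between 0.000138 and 0.00132 by permutation, beside 23.9% of all genes called with r above 0 and 22.6% below. Their rho was 0.80, 0.62, 0.73, 0.61 and 0.61. BCAT4 and CYP83A1 were not called (r = 0.15 and 0.15, adjusted p = 0.471 and 0.471, rho = 0.31 with p = 0.0663 and 0.40 with p = 0.0153). Without families 340 and 368, whose epiHybrids had 228 and 317 CPM of MYB28, BCAT4 had r = 0.54 (adjusted p = 0.00288) and CYP83A1 0.71 (adjusted p = 0.000211), and all 8 genes were called, beside 24.0% of all genes with r above 0 and 24.9% below. These are the highest MYB28 levels of the epiHybrids, so the calls without them are a description only. IMS2 had r = 0.38 (adjusted p = 0.0594, rho = 0.63 with p = 5e-05) and 0.72 in the 33 families (adjusted p = 0.000128), where 6 of 8 genes were called beside 24.4% of all genes with r above 0. The difference in r between epiRILs and epiHybrids was not tested.

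With IMS2 as the reference, 5 of 8 genes were called over the 36 epiRILs, beside 7.41% of all genes with r above 0 and 9.27% below. They were CYP83A1 (r = 0.62, adjusted p = 0.00974, rho = 0.58 with p = 0.00024), CYP79F2 (0.56, 0.0115, rho = 0.56 with p = 0.0004), BCAT4 (0.55, 0.0136, rho = 0.60 with p = 0.00017), CYP79F1 (0.54, 0.0148, rho = 0.57 with p = 0.00048) and FMO GS-OX1 (0.54, 0.0142, rho = 0.50 with p = 0.00222), with r of 0.58 to 0.75 without families 12 and 568, the 2 farthest from the IMS2 median. MYB28 missed the threshold (0.43, adjusted p = 0.0521), as did MYB29 (0.20, adjusted p = 0.428) and MAM1 (0.07, adjusted p = 0.798). Within the 33 families MAM1 correlated with IMS2 at r = 0.56 (adjusted p = 0.0065), and 7 of 8 genes were called beside 16.8% of all genes with r above 0 and 14.9% below. That set, chosen after the data were seen, leaves out the highest IMS2 levels of the epiRILs, so its calls are a description only.

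Over the 36 epiHybrids, 0 of 8 genes were called with IMS2 by Pearson's r, 6 having an unadjusted permutation p under 0.05, beside 0.0619% of all genes called with r above 0 and 0.0671% below. By Spearman's rho 7 of the 8 were called, beside 21.0% of all genes with rho above 0 and 20.5% below. Without families 12, 79 and 568, which hold the lowest and the highest IMS2 levels, all 8 were called beside 24.8% of all genes, with r from 0.53 for MYB29 (adjusted p = 0.0059) to 0.83 for FMO GS-OX1 (adjusted p = 0.000144) and 0.65 for MAM1 (adjusted p = 0.000281). This set was chosen after the data were seen and leaves out extremes of IMS2 itself, so its calls are a description only. The pair MAM1 and IMS2 went from -0.12 over 36 epiHybrids to 0.65 over 33.

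Over the 36 pairs among the 9 genes, the median r was 0.64 in epiRILs and 0.55 in epiHybrids, and 0.72 and 0.66 in the 33 families. The closest pair was CYP79F1 with FMO GS-OX1, with r = 0.93 in epiRILs and 0.94 in epiHybrids. BCAT4 and CYP83A1 formed another close pair, with r = 0.85 and 0.91. These r over pairs are a description and share libraries, normalisation and depth.

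**Figure D4:**
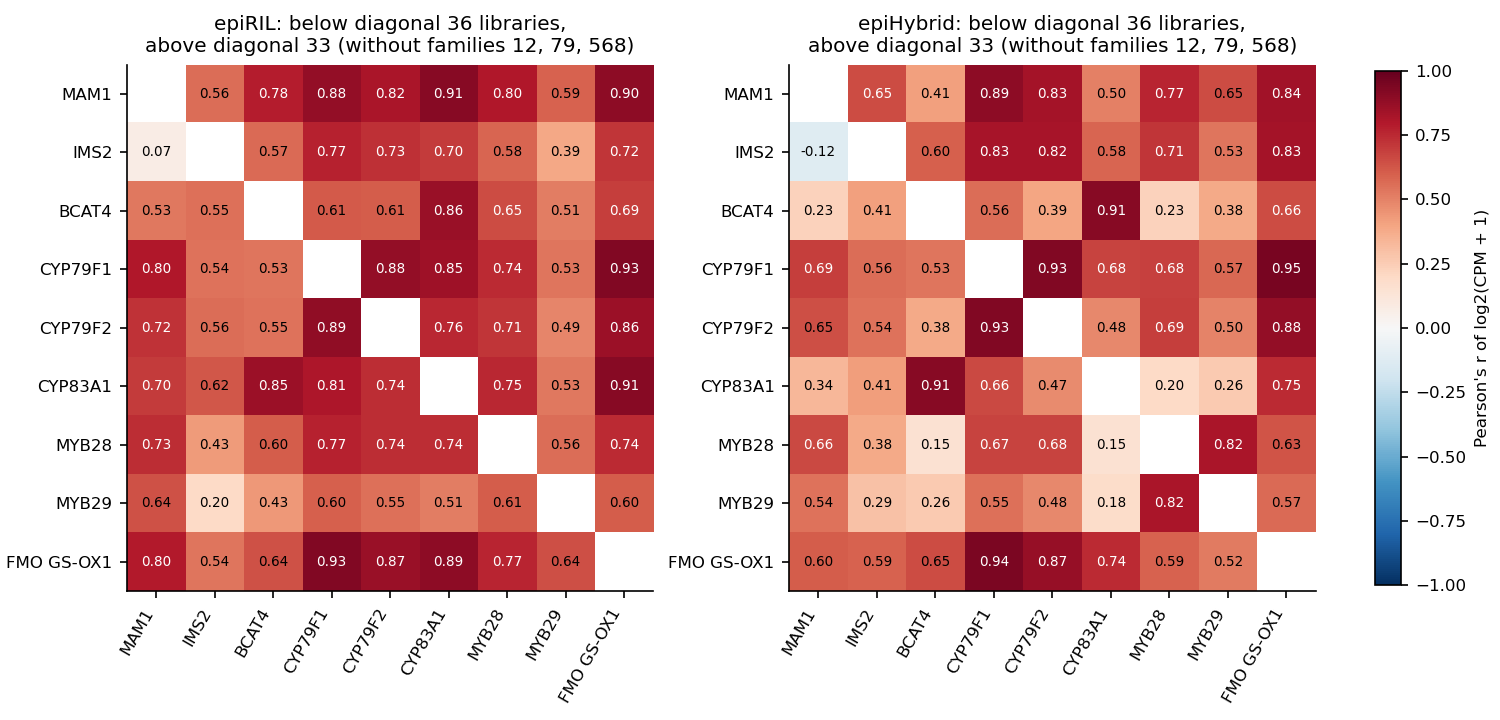
Pearson's r of log2(CPM + 1) for each pair of the 9 measured genes over epiRILs (left) and epiHybrids (right), with 36 libraries below the diagonal and 33 (without families 12, 79 and 568) above it; colour runs from -1 to 1. Most pairs are positive, CYP79F1 with FMO GS-OX1 is highest (0.93 and 0.94), and MAM1 with IMS2 moves from 0.07 to 0.56 in epiRILs and from -0.12 to 0.65 in epiHybrids.

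A library property moved with these genes. The slope of a library's deviation from the mean level on log2 exon length ran from -0.324 to 0.134 in epiRILs, from -0.36 to 0.197 in epiHybrids and from 0.059 to 0.094 in msCol. Over epiRILs its r was 0.78 with CYP79F1, 0.74 with CYP79F2, 0.64 with FMO GS-OX1, 0.58 with MAM1, 0.51 with MYB28 and -0.04 with BCAT4, and over epiHybrids 0.72, 0.71, 0.56, 0.46, 0.47 and -0.06. On residuals after this slope, 7 of 8 genes were called with MYB28 over epiRILs (r = 0.50 to 0.73), beside 15.6% of all genes with r above 0 and 14.3% below, while IMS2 was not (0.35, adjusted p = 0.0926). Over epiHybrids 5 of 8 were called on residuals, beside 24.3% of all genes with r above 0 and 23.8% below. From father to epiHybrid MYB28 stayed called on residuals (r = 0.40, adjusted p = 0.042), beside 14.6% of all genes. For epiRIL against msCol with the slope as a covariate, CYP79F1 had -0.59 in place of -0.72. The part of this property in the correlations was not otherwise tested.

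The 5 genes outside the set with the highest r with MYB28 over epiRILs were SEC14 (AT4G39180, r = 0.82, and 0.66 over epiHybrids), AK3 (AT3G02020, 0.81 and 0.40), AT2G19650 (0.81 and 0.80), the sulfotransferase SOT18 (0.81 and 0.71) and FMO GS-OX3 (0.80 and 0.54). AK3 is an aspartate kinase, an enzyme of the pathway that leads to methionine. For IMS2 they were AT1G50290 (0.77 and 0.75), AT5G18340 (0.73 and 0.62), UNE12 (0.71 and 0.20), SEX4 (0.70 and 0.41) and AT5G43403 (0.70 and 0.05). Without families 12, 79 and 568, AT1G50290 had r = 0.65 over epiRILs and 0.23 over epiHybrids. These likenesses cover 36 libraries of each kind and were ranked on r alone.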

How the data were processed

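The deposited table holds raw read counts per gene, which the authors made by trimming with Trim Galore, aligning to TAIR10 with TopHat2 and counting with featureCounts; versions, strand and multi-mapping settings are not given in the sources used here. All 74 columns were mapped to their labels. No 2 libraries were identical. A gene entered the tests when 2 or more libraries reached 1 CPM (19383 of 28556 genes with a count). edgeR 4.0.16 (R 4.3.3) fitted quasi-likelihood models on TMM factors over 74 libraries, with family as a block for epiHybrid against epiRIL (an epiHybrid and its father share a number by parentage; their deviations correlated at 0.424 on average, above 0.1 in 30 of 36 families) and 1 model of 3 groups for msCol. SE is the absolute log2 fold change over the square root of F. Correlations used log2(CPM + 1), 100000 shuffles and Benjamini-Hochberg adjustment. The edgeR p-values weigh a difference against the spread between libraries, within families for epiHybrid against epiRIL. For msCol that spread comes mostly from the line groups. Those of the correlations come from the shuffles. DESeq2 1.42.0 and other filters, pseudocounts, scalings and sample sets were tried. Scripts were tested on simulated data. Named genes were the 10 of the set, called pathway genes and a few by role, 5 neighbours on either side of the MAM locus and the 5 most alike. Members and lists were chosen with earlier results of these data known, and the fits without families 12, 79 and 568 were added after seeing the data. Gene positions come from the RefSeq annotation of TAIR10.1, which holds 32548 of the table's genes. One promoter sequence is not reported here.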

Additional observations from a re-analysis of the deposited data

How the results depend on the processing

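For epiHybrid against epiRIL, 254 genes were called, 162 with no replicate block and 399 with the exon length slope as covariate; the block changed no call for the 7 genes outside the MAM locus. Other pathway genes called went from 1 to 2 with no replicate block, without families 340 and 368 or without families 12 and 568, and to 3 by DESeq2. For epiRIL against msCol, 533 genes became 1016 with the slope, 896 without families 340 and 368, 1093 with 2 groups alone and 128 to 220 without 1 msCol library (pathway genes 13 to between 1 and 5). For epiHybrid against msCol, 355 became 728, 732, 178 and 85 to 126, and 585 by DESeq2 (pathway genes 7 to 11 without families 340 and 368, and 1 to 3 without 1 msCol library). A lone msCol library is assumed to vary like the other groups.

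From father to epiHybrid, 3493 genes became 6072 without families 340 and 368 and 1944 by rho, and the 2 called genes of the set became 1 by rho, without families 12, 79 and 568, or with a filter of 1 CPM in 36 libraries. MAM1 turned to -0.062 on residuals after the slope and IMS2 to 0.117 without families 12, 79 and 568. With MYB28 over epiHybrids, 5 called genes of the set became 8 without families 340 and 368. With IMS2 over epiRILs, 3233 genes became 6141 without families 12, 79 and 568, and MAM1 turned to -0.101 on residuals. With IMS2 over epiHybrids, 25 genes became 82 without families 340 and 368, 8051 by rho and 9174 without families 12, 79 and 568. There, 0 called genes of the set became 7 and 8, and MAM1 turned from -0.125 to 0.279 and 0.653. The cause was not tested. The msCol values rest on 2 libraries, which limits every contrast with them.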
